A study of Homo sapiens with 15 samples.

Results

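Ov4Carbo4, a carboplatin-resistant ovarian cancer line grown from 1 cell, was compared with Ovcar4Parental, the platinum-sensitive OVCAR4 culture at the origin of the whole panel. OVCAR4 is an established line that models high-grade serous cancer of the ovary. The carboplatin-resistant population Ov4Carbo arose from OVCAR4 during culture in growing amounts of carboplatin, and both Ov4Carbo4 and a second line, Ov4Carbo7, descend from single cells of that population. Samples were assigned by the cell line in their labels, which gave 3 samples of Ov4Carbo4 and 3 of Ovcar4Parental, or 6 of the 15 samples of the series. The series design calls the 3 replicates biological. All lines were grown in DMEM with serum and antibiotics, and the labels name no drug at harvest. Ov4Carbo4 is 1 clone, so what its founding cell already carried and what arose under carboplatin cannot be told apart. Ov4Carbo, Ov4Carbo7 and the cisplatin-resistant Ov4Cis, with 3 samples each, are used only to show where Ov4Carbo4 stands apart.

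Carboplatin forms adducts and crosslinks in DNA. Resistance to it has been linked in ovarian cancer to altered copper and platinum transport, thiol-rich detoxifying molecules such as glutathione and metallothioneins, DNA repair and avoidance of apoptosis. Serous cancer cells also differ in how far they keep an epithelial state, with tight cell junctions and keratins, or take on mesenchymal traits such as matrix production. NF-kB is a family of transcription factors that drives chemokine and cytokine genes, and many ovarian cancer lines secrete such factors without outside stimulation.

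The values were log2 RPKM, the logarithm of read counts scaled to gene length and sequencing depth, for 16604 genes. Read totals were not used here, so depth is unknown and replicate spread is the measure of precision. Genes count as called below where limma gave an adjusted p under 0.05 and the change reached 1 log2 unit. Replicates differed by a root mean square of 0.32 to 0.36 log2 units in Ov4Carbo4 and 0.40 to 0.56 in Ovcar4Parental, against 1.11 to 1.18 between samples of the 2 lines. Sample titles carry numbers in 2 series that the labels do not call batches. Every Ov4Carbo4 and Ov4Carbo7 sample belongs to the first series, and every Ovcar4Parental and Ov4Cis sample to the second. In Ov4Carbo4 against Ovcar4Parental or Ov4Cis, a technical difference between the series and a difference between the lines cannot be told apart. The only exception is through Ov4Carbo, which has replicate 1 in the first series and the other replicates in the second. A fit with a term for the series called 2972 genes, but only 1708 of the 2513 calls reported below were among them with the same sign, and 36 of the 2513 had the opposite sign. The comparisons with the other resistant lines use the same Ov4Carbo4 samples as the comparison with Ovcar4Parental, so they are not independent of it.

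The serous marker PAX8, the transcription factor that identifies this lineage, was at log2 RPKM 6.04, 6.01 and 5.97 in Ovcar4Parental and 5.74, 5.91 and 5.91 in Ov4Carbo4. It was not called. WT1, another usual marker of this cancer, was near absent at -6.37, -5.11 and -3.74 in Ovcar4Parental and stayed below 0 at -1.91, -2.19 and -2.70 in Ov4Carbo4, although its rise of 2.81 was called. MUC16 (CA125) was not called, while KRT7, KRT18 and MSLN fell. Among markers of other cell types, erythroid genes were not in the table, both leukocyte genes present (CD14 and LAPTM5) lay below log2 RPKM 0 in all 6 samples, and so did the fibroblast genes LUM, THY1 and PDGFRB. COL1A1 and the endothelial cadherin CDH5 rose, by 1.22 and 1.96 log2 units, and KDR fell by 1.77 from levels already below 0, a call not kept with the title series term (-0.80). The part of other cell types in the results was not tested.

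Ov4Carbo4 and Ovcar4Parental differed at 2513 genes, 15.1% of those tested. Of these 1234 (7.43%) were higher and 1279 (7.7%) lower in Ov4Carbo4, and the median difference over all genes was 0.07 log2 units. The adjusted p alone passed for 39.7%, and the 3 values of either line lay all above or all below those of the other for 58.1%, so separated values are common and are given below as description. The call was reached by 809 genes with both line means below log2 RPKM 0, where small absolute amounts give large log2 differences. Among the 12037 genes with a mean of at least log2 RPKM 1 over all samples, 968 (8.04%) were called, 403 higher (3.35%) and 565 lower (4.69%). The log2(RPKM + 1) scale, which damps low genes, gave 1053 calls, of which 408 were rises and 645 falls.

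The 12 largest rises on the log2(RPKM + 1) scale were CALB1, SPARC, PLCL1, ROBO1, F2RL2, SESN3, GLI3, RHOU, TMTC1, EN2, ENG and DLC1. CALB1, a calcium-buffering protein best known from neurons and kidney tubules, was at log2 RPKM 2.14, 1.16 and 0.02 in Ovcar4Parental and 7.83, 7.92 and 7.69 in Ov4Carbo4. This was a rise of 6.71 log2 units (SE 0.39, adjusted p = 1.41e-07), to a mean of 225.5 RPKM from 2.55. TMTC1, an endoplasmic reticulum mannosyltransferase, was level within each line at 3.52, 3.50 and 3.49 in Ovcar4Parental against 6.77, 6.90 and 6.80 in Ov4Carbo4. None of these ranges overlapped. CALB1 was also high in Ov4Carbo (5.20) and Ov4Carbo7 (6.50), both called below Ov4Carbo4, and averaged -4.34 in Ov4Cis. TMTC1 was also called higher than in each of the other 3 resistant lines, whose means were 3.86 in Ov4Carbo, 2.94 in Ov4Carbo7 and 2.50 in Ov4Cis. RHOU, an atypical small GTPase, rose by 3.85 (SE 0.30, adjusted p = 1.32e-06) and was likewise called higher than in Ov4Carbo, Ov4Carbo7 and Ov4Cis. ROBO1, a receptor for SLIT guidance cues, rose by 4.91 but did not pass the test against Ov4Carbo or Ov4Carbo7, whose means were 5.80 and 5.64. SESN3, a stress-responsive regulator of mTORC1, rose by 3.98 and had the near-equal mean of 5.24 in Ov4Carbo.

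The 12 largest falls were CXCL8, MT1E, NNMT, DMD, PTGS1, PTPRM, PROM1, FNDC1, SLC8A1, FABP5P7, TAGLN and NID2. PTPRM, a receptor tyrosine phosphatase that binds itself across cell contacts, was at log2 RPKM 5.92, 5.90 and 5.86 in Ovcar4Parental and 0.66, 0.90 and 0.81 in Ov4Carbo4. Its fall of 5.10 log2 units (SE 0.10, adjusted p = 6.7e-12) left a mean of 1.73 RPKM from 59.5. The other resistant lines held it at means of 6.25 to 6.82, and each difference from Ov4Carbo4 was called. NNMT, which methylates nicotinamide, fell from 6.20, 6.25 and 5.51 to 0.74, 0.27 and 0.19 and stayed at means of 4.87 in Ov4Carbo, 6.74 in Ov4Carbo7 and 6.02 in Ov4Cis. Again the groups did not overlap, and Ov4Carbo4 was called lower than all 3. DMD, which encodes dystrophin, fell by 7.11 but was also below log2 RPKM 0 on average in Ov4Carbo, Ov4Carbo7 and Ov4Cis. PTGS1 (COX-1, a prostaglandin synthase) fell by 5.35 (SE 0.30, adjusted p = 1.11e-07), and PROM1 (CD133, a membrane glycoprotein used as a stem cell marker) by 5.64 (SE 0.27, adjusted p = 3.4e-08). FABP5P7 is a pseudogene of FABP5, so reads of the parent gene may reach it and its value is uncertain.

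**Figure D1:**
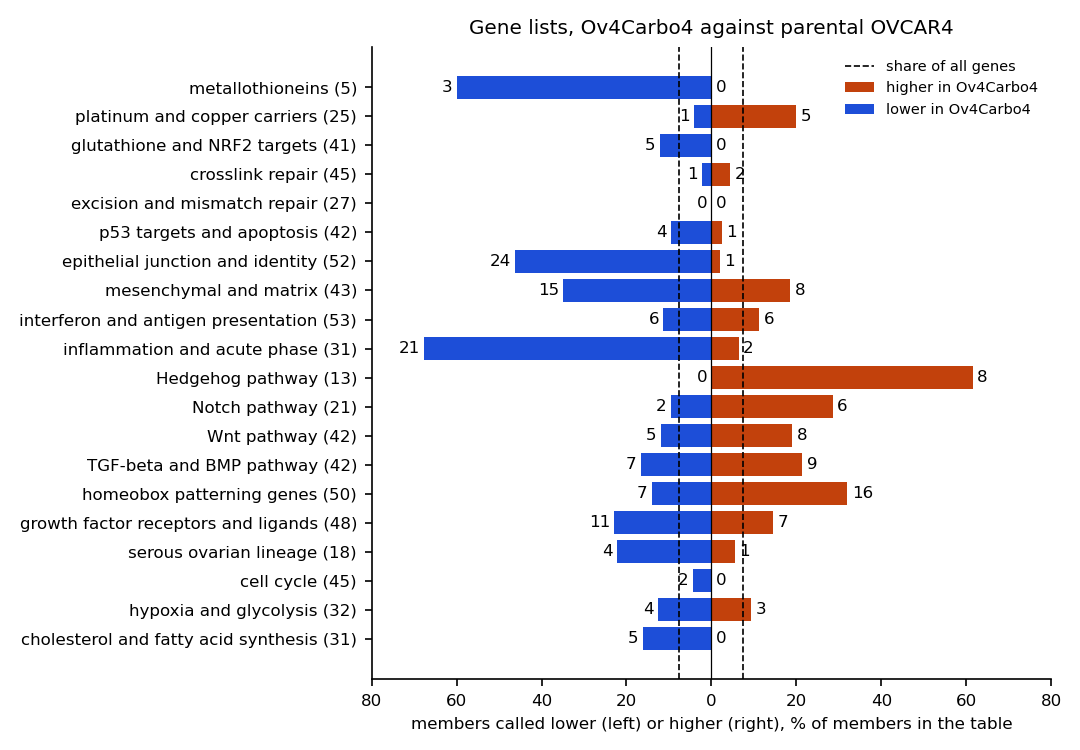
Share of each gene list called lower (left, blue) or higher (right, orange) in Ov4Carbo4, in % of the members in the table (number in brackets), with counts at the bar ends and the shares of all genes (7.7% lower, 7.43% higher) as dashed lines. The inflammation list stands out on the left with 21 of 31 members and the Hedgehog list on the right with 8 of 13.

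Inflammatory genes were low in Ov4Carbo4. Of 31 listed NF-kB targets, chemokines and acute phase proteins in the table, 21 were called lower (67.7%, against 7.7% of all genes) and 2 higher, CCL5 and PTGS2, both below log2 RPKM 0. The list's median was a fall of 1.57 log2 units. Among the 16 members with a mean of at least log2 RPKM 1, 13 were called lower and none higher. All 6 CXCL chemokines of the list fell. These small secreted proteins attract neutrophils through CXCR1 and CXCR2, and their genes lie together on chromosome 4.

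The promoters of those 6 genes are shown because the chemokines fell together and the same short motif was found in each. The stretches are the 110 bases before each gene's start in RefSeq on GRCh38.p14, written 5′ to 3′ on the gene's strand, with matches to the letters GGAATTTCC, a form of the kB motif that NF-kB binds, in capitals.
CXCL8 (chr4:73740459-73740568, plus strand): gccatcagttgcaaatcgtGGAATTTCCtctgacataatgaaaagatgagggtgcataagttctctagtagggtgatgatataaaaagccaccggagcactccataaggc
CXCL6 (chr4:73836568-73836677, plus strand): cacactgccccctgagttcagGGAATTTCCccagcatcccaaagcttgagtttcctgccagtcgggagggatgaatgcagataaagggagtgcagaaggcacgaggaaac
CXCL5 (chr4:73998678-73998787, minus strand): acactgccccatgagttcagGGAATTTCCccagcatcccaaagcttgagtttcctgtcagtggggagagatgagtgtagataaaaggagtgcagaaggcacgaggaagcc
CXCL3 (chr4:74038690-74038799, minus strand): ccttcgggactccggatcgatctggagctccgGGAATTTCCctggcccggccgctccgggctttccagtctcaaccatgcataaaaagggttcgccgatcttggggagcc
CXCL2 (chr4:74099196-74099305, minus strand): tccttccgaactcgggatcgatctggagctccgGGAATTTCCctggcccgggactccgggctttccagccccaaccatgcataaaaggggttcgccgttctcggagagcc
CXCL1 (chr4:73869283-73869392, plus strand): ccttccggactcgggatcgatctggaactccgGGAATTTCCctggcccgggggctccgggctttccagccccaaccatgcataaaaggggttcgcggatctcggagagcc
The motif was searched on both strands of the 250 bases before the start, and no other motif was searched. Each of the 6 promoters held it once, 77 to 91 bases from the gene's start. It was found in 0.413% of all 35116 RefSeq promoters and in 0.388% of the 16254 belonging to genes of the expression table. Of 26 inflammation list genes with a promoter entry 9 held it, the others being ICAM1, which was called lower, and NFKB1 and NFKBIA, which were not called. The list was drawn up to include NF-kB targets, so a share above that of all promoters was likely from the start and is not a result. The stretches of CXCL1, CXCL2 and CXCL3 are nearly alike, as are those of CXCL5 and CXCL6, so the 6 matches are not separate observations. A match is a description of the letters in this window and shows no binding. Its part in the falls was not tested.

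CXCL8 (interleukin 8) was at log2 RPKM 5.63, 5.40 and 5.22 in Ovcar4Parental and -1.09, -0.95 and -1.05 in Ov4Carbo4. The fall of 6.45 log2 units (SE 0.24, adjusted p = 4.21e-09) took the mean from 42.9 RPKM to 0.49. CXCL8 kept means of 4.13 in Ov4Carbo, 5.75 in Ov4Carbo7 and 4.97 in Ov4Cis, each called above Ov4Carbo4. CXCL1 went from 4.58, 5.20 and 5.75 to 1.20, 1.34 and 0.64, a fall of 4.12 (SE 0.38, adjusted p = 4.69e-06). CXCL5 stood at 3.27, 3.54 and 3.10 in Ovcar4Parental against -1.20, -2.17 and -1.91. CXCL2, CXCL3 and CXCL6 fell by 3.39, 3.08 and 4.51 from lower parental levels. All 6 CXCL genes were called lower in Ov4Carbo4 than in each of Ov4Carbo, Ov4Carbo7 and Ov4Cis as well.

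**Figure D2:**
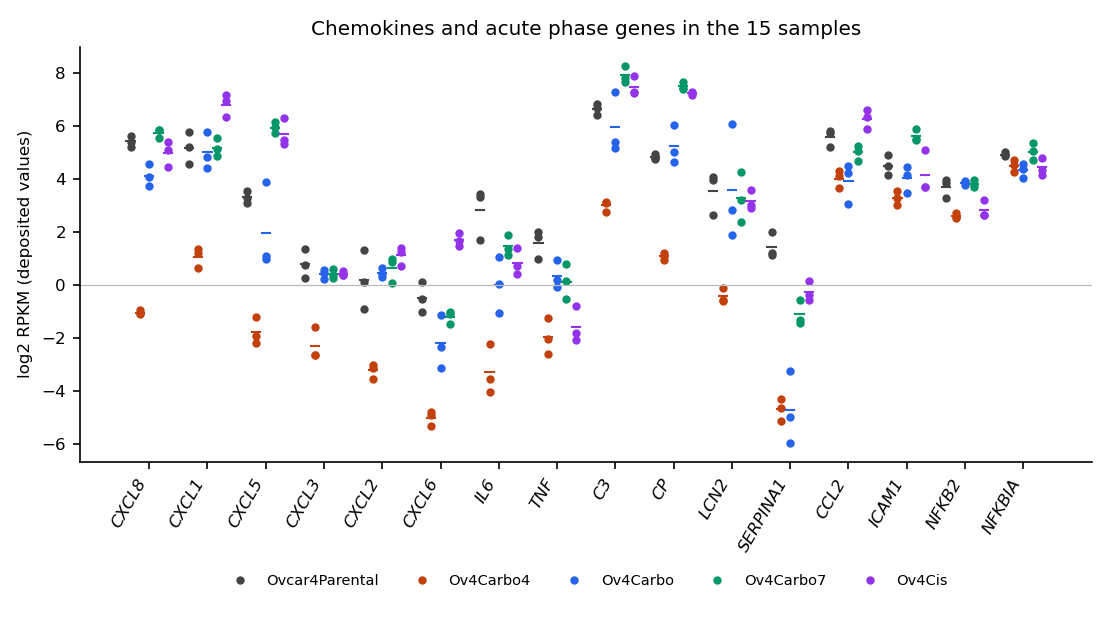
Log2 RPKM of 16 inflammation list genes, chosen after their values were seen, with a point for each of the 15 samples, a bar at each line mean and colours for the 5 lines. Ov4Carbo4 (orange) lies below every other sample for CXCL8, CXCL1, IL6, C3, CP and LCN2, while NFKBIA differs little.

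IL6, the cytokine that induces the acute phase, went from 3.43, 3.32 and 1.69 to -3.52, -2.23 and -4.01, a fall of 6.07 (SE 0.60, adjusted p = 8.95e-06). TNF fell by 3.55 (SE 0.46, adjusted p = 7.5e-05). Complement component C3 was at 6.66, 6.41 and 6.82 in Ovcar4Parental and 3.11, 3.14 and 2.76 in Ov4Carbo4, a fall of 3.63 (SE 0.43, adjusted p = 3.43e-05). Neither IL6 nor C3 overlapped between the lines. The copper carrier ceruloplasmin (CP) fell by 3.74, the iron-sequestering LCN2 by 3.97 and the protease inhibitor SERPINA1 by 6.11. The monocyte attractant CCL2 fell less, by 1.57, and kept 4.29, 4.09 and 3.65. Of the NF-kB subunits and feedback genes listed, NFKB2 and RELB fell by 1.09 and 1.11 and the feedback deubiquitinase TNFAIP3 by 1.14, and NFKB1 and NFKBIA were not called at -0.28 and -0.43. The smaller calls hung on single samples: NFKB2 (-0.96), RELB (-0.997) and ICAM1 (-1.03) were not called without Ovcar4Parental replicate 1, RELB (-0.96) and TNFAIP3 (-0.98) without Ovcar4Parental replicate 2, ICAM1 (-1.09) and TNFAIP3 (-1.04) without Ov4Carbo4 replicate 3, and the rise of PTGS2 without Ov4Carbo4 replicate 1 (1.31) or Ovcar4Parental replicate 3 (1.51). ICAM1, RELB, CCL5 and PTGS2 were not called with the title series term either, and PTGS2 then turned to -0.34. In that fit 17 members were called lower and none higher. Of the 31 members, 23 were called lower in Ov4Carbo4 than in Ov4Carbo7 (11.1% of all genes were), 14 than in Ov4Carbo (6.64%) and 20 than in Ov4Cis (9.12%).

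Many epithelial genes were lower in Ov4Carbo4. The table held 52 genes for junctions, keratins and epithelial transcription factors, and their median was -0.99. Of these 24 were called lower (46.2%, against 7.7% of all genes). The 1 called higher was the cornified envelope gene EVPL (1.92%, against 7.43% of all genes). CLDN1, a claudin that seals tight junctions, was at log2 RPKM 5.33, 5.17 and 5.12 in Ovcar4Parental and 0.30, 0.43 and 0.31 in Ov4Carbo4. Its fall of 4.86 (SE 0.22, adjusted p = 2.3e-08) was larger than in the other resistant lines: their means were 4.01 in Ov4Carbo, 4.52 in Ov4Carbo7 and 4.04 in Ov4Cis, each called above Ov4Carbo4. RAB25, a GTPase of epithelial vesicle recycling, went from 3.05, 2.39 and 2.04 to -5.42, -4.10 and -4.40, and OVOL1, an epithelial zinc finger repressor, fell by 4.55. KRT7, the keratin of simple epithelium used in diagnosis, fell by 2.65 from 8.30, 8.11 and 8.43 to 5.89, 5.26 and 5.75. LAMA3 and LAMB3, chains of the laminin that anchors epithelia to basement membrane, fell by 2.55 and 3.16. The ranges of the lines did not overlap for any of the called members.

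Some falls of epithelial genes were smaller or less firm. E-cadherin (CDH1), which holds epithelial cells together, was at 4.90, 4.66 and 4.33 in Ovcar4Parental and 3.52, 3.93 and 3.41 in Ov4Carbo4, and its change of -1.01 (SE 0.32, adjusted p = 0.0234) lay at the fold limit. The CDH1 call was lost when any of 4 samples was left out, with -0.96 (Ov4Carbo4 replicate 1), -0.91 (Ov4Carbo4 replicate 3), -0.87 (Ovcar4Parental replicate 1) and -0.996 (Ovcar4Parental replicate 2). KRT18 was just under the limit without Ov4Carbo4 replicate 2 (-0.97) or Ovcar4Parental replicate 3 (-0.98). EPCAM changed by -0.75 (limma adjusted p = 0.00825) and CLDN4 by -0.98 (adjusted p = 0.016). Both were lower without overlap but short of the fold limit, so neither was called. The splicing factor ESRP1 fell by 1.72 (SE 0.48, adjusted p = 0.0123) and GRHL2, a transcription factor of the epithelial programme, by 3.90 (SE 0.72, adjusted p = 0.00101). With a term for the title series, 20 members were called lower, but CDH1, ESRP1 and GRHL2 were not, at -0.21, -0.015 and -0.43, and EVPL was not called higher. GRHL2 in Ov4Carbo was at -4.95 in replicate 1 and -1.68 and -1.28 in the others. Epithelial levels in Ov4Carbo4 were mostly above those of the other clone and of Ov4Cis: 27 members were called higher than in Ov4Carbo7 (9.86% of all genes were) and 39 higher than in Ov4Cis (7.72%). Against Ov4Carbo, 5 were called higher (7.58% of all genes were) and 5 lower (6.64%). CDH1 averaged -3.52 in Ov4Cis and ESRP1 -4.28.

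**Figure D3:**
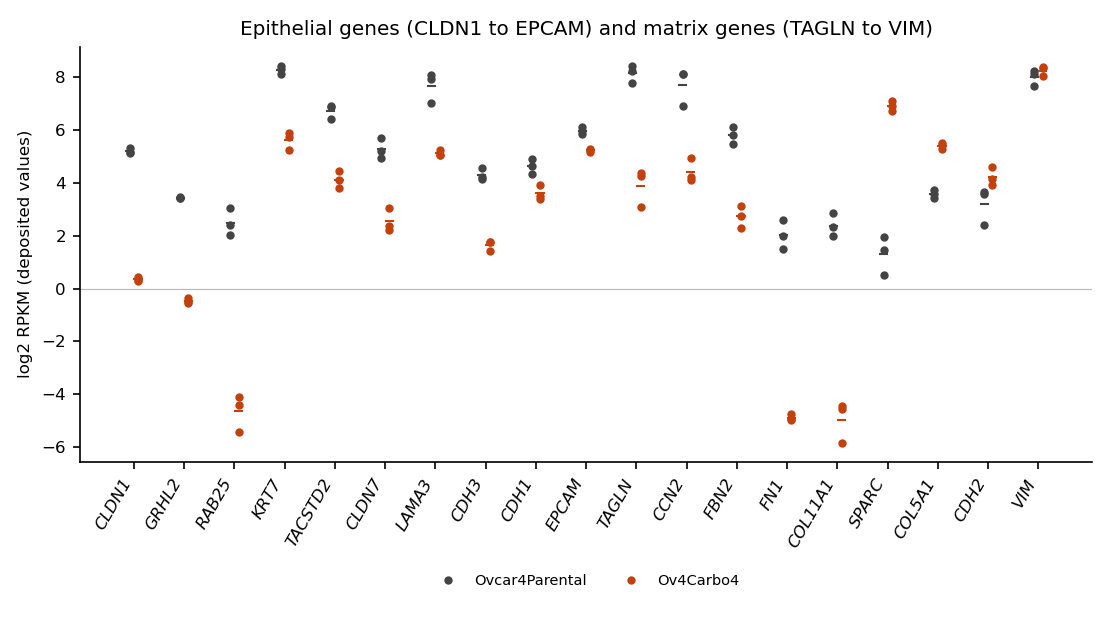
Log2 RPKM of 10 epithelial and 9 matrix or mesenchymal genes, chosen after their values were seen, with points for the 3 samples of each line and bars at the means. Ov4Carbo4 (orange) lies below Ovcar4Parental (grey) from CLDN1 to COL11A1 and above it for SPARC and COL5A1.

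Matrix and mesenchymal genes moved both ways, with 8 of 43 called higher (18.6%) and 15 lower (34.9%) and a median of -0.29. The shares of all genes were 7.43% and 7.7%. Among the 31 members with a mean of at least log2 RPKM 1, 5 were called higher and 7 lower. SPARC, a collagen-binding matricellular protein, rose from 1.95, 1.46 and 0.51 to 7.11, 6.91 and 6.74, which was 5.61 log2 units (SE 0.28, adjusted p = 4.17e-08). The collagen genes COL5A1 and COL1A1 rose by 1.83 and 1.22, and the gelatinase MMP2 by 1.18. TWIST1, a factor that represses E-cadherin, rose by 5.53 from near absence but reached only -0.23, -0.28 and -0.48. On the other side, TAGLN, an actin-binding protein of contractile cells, went from 7.79, 8.24 and 8.42 to 4.26, 3.07 and 4.37, a fall of 4.25 (SE 0.49, adjusted p = 2.75e-05). ACTA2, smooth muscle actin, fell by 5.62 and CCN2, a matricellular target of YAP and TGF-beta, by 3.30. FN1 (fibronectin) was at 1.49, 2.59 and 2.00 in Ovcar4Parental and -4.98, -4.95 and -4.77 in Ov4Carbo4, while the fibrillin FBN2 fell by 3.07 and the collagen COL11A1 by 7.34. These ranges did not overlap. VIM and ZEB1, the usual mesenchymal intermediate filament and repressor, were not called at 0.23 and 0.46. N-cadherin (CDH2) was called at 1.02 but not without Ov4Carbo4 replicate 3 (0.83) or Ovcar4Parental replicate 1 (0.62). With the title series term CDH2 and MMP2 were not called, at 0.45 and 1.10, and VIM and ZEB1 turned to -0.45 and -0.11, with 5 members higher and 16 lower.

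The Hedgehog pathway relays secreted ligands through the receptors PTCH1 and SMO to the GLI transcription factors. It had 13 listed genes in the table, and 8 of them were called higher (61.5%, against 7.43% of all genes) and none lower, with a median of 1.14. The co-receptors GAS1 and BOC, which help ligand bind, rose by 2.37 (SE 0.42, adjusted p = 0.000776) and 1.27 (SE 0.28, adjusted p = 0.00375). GLI3, the factor that can act as activator or repressor, was at -1.04, -0.75 and -1.55 in Ovcar4Parental and 3.75, 3.85 and 3.83 in Ov4Carbo4, a rise of 4.92 (SE 0.18, adjusted p = 4.21e-09). The lines did not overlap, and GLI3 was also high in Ov4Carbo (3.18), Ov4Carbo7 (2.12) and Ov4Cis (3.54). GLI2, the main activator, rose by 1.40 from -0.25, 0.23 and 0.11 to 1.62, 1.08 and 1.58, and was called above each other resistant line. GLI1, a target of the pathway, rose by 2.12 but stayed below 0 at -0.65, -0.28 and -1.03. The GLI1 call was lost without Ov4Carbo4 replicate 1 (2.12) or 2 (1.93) and without Ovcar4Parental replicate 2 (1.87) or 3 (2.14), and the BOC call without Ovcar4Parental replicate 1 (0.97). PTCH1, the receptor that is also a target, was not called at 0.30 (-0.09 with the title series term), and neither was SMO at 0.41. The called count was 4 among the 8 members with a mean of at least log2 RPKM 1, 3 on the log2(RPKM + 1) scale and 4 with the title series term, under which GAS1 and BOC were not called.

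In the Notch pathway, which signals between neighbouring cells, 6 of 21 members were called higher (28.6%) and 2 lower (9.52%). The shares over all genes were 7.43% and 7.7%. The receptor NOTCH1 rose from 2.53, 2.79 and 2.81 to 3.91, 3.71 and 4.15, by 1.21 (SE 0.23, adjusted p = 0.00111), and the ligand JAG2 by 1.24. NOTCH1 and JAG2 were both called above Ov4Carbo, Ov4Carbo7 and Ov4Cis, and the NOTCH1 call was not kept with the title series term. Of the HEY target genes, HEY1 rose by 2.60 (SE 0.33, adjusted p = 6.2e-05) and HEY2 fell by 8.71 (SE 0.55, adjusted p = 2.28e-07), from 2.91, 2.84 and 3.17 to -5.45, -6.37 and -5.38. HEY2 was also low in Ov4Carbo (-6.09) and Ov4Carbo7 (-6.16) and stayed at 1.86 in Ov4Cis. The E3 ligases DTX1 and DTX4, regulators of Notch trafficking, went opposite ways, by 5.27 and -3.56. On the log2(RPKM + 1) scale, which damps low genes, DTX1 rose by only 0.94 and was not called.

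Wnt genes included 8 of 42 higher (19%) and 5 lower (11.9%), against 7.43% and 7.7% of all genes. Among the 24 members with a mean of at least log2 RPKM 1, 2 were called higher and 3 lower. ROR2, a receptor for non-canonical Wnt ligands, rose from -1.24, -1.63 and -0.58 to 3.41, 3.29 and 3.29, by 4.48 (SE 0.28, adjusted p = 2.08e-07). Its ligand WNT5A fell by 2.65 and the secreted antagonist SFRP1 by 2.91 (SE 0.28, adjusted p = 7.6e-06). TNFRSF19 (TROY), a death-domain receptor induced by Wnt, was at -1.92, -1.71 and -0.14 in Ovcar4Parental and 2.95, 2.55 and 2.74 in Ov4Carbo4, a rise of 4.002 (SE 0.49, adjusted p = 4.48e-05). The lines did not overlap. Its means were -4.64 in Ov4Carbo, -3.06 in Ov4Carbo7 and -2.21 in Ov4Cis, so Ov4Carbo4 was above its own source population by 7.39 (adjusted p = 6.07e-07). AXIN2, the common feedback target of beta-catenin, was not called at -0.35.

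TGF-beta and BMP genes had 9 of 42 members higher (21.4%) and 7 lower (16.7%), against 7.43% and 7.7% of all genes. The ligand TGFB1 rose from 4.03, 4.12 and 3.99 to 5.37, 5.13 and 5.20, and its receptor TGFBR2 fell by 1.23 (SE 0.32, adjusted p = 0.00909). BMP4 rose by 1.10 (SE 0.22, adjusted p = 0.00171), the BMP antagonist GREM1 fell by 3.97 (SE 0.78, adjusted p = 0.00155) and the BMP target ID2 rose by 1.93 (SE 0.23, adjusted p = 4.2e-05). ID2 and ID3 were both called and ID1 was not, at 0.42. BMP4 was called above Ov4Carbo, Ov4Carbo7 and Ov4Cis. The BMP4 call was not kept without Ovcar4Parental replicate 1 (0.82). ID3 was not called without Ov4Carbo4 replicate 1 (1.12) or 3 (1.18) or Ovcar4Parental replicate 1 (0.76), and the count of higher members was 5 without the last of these. With the title series term 5 members were higher and 10 lower, and TGFB1 and ID3 were not called (0.55 and 1.21).

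Homeobox genes, which set positional identity in development, had 16 of 50 higher (32%) and 7 lower (14%), against 7.43% and 7.7% of all genes. Of the risers, 7 had a mean of at least log2 RPKM 1. EN2 (engrailed 2) went from -6.37, -5.94 and -6.68 to 3.20, 2.93 and 3.04, a rise of 9.39 (SE 0.18, adjusted p = 6.7e-12). EN2 was also well above Ovcar4Parental in Ov4Carbo (1.39), Ov4Carbo7 (0.90) and Ov4Cis (2.52). Ov4Carbo4 was called above Ov4Carbo and Ov4Carbo7 for EN2, and not above Ov4Cis. MSX2, a BMP-responsive homeobox repressor, rose from 3.51, 3.80 and 3.96 to 6.66, 6.23 and 6.37. Neither gene overlapped between the lines. The MSX2 rise of 2.67 (SE 0.15, adjusted p = 1.25e-07) was not seen in the other resistant lines, whose means were 3.66, 3.08 and 3.98, all called below Ov4Carbo4. PBX3, a cofactor of HOX proteins, rose by 1.70, and DLX5 by 1.82. Both were called above each of the other resistant lines.

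The falls included the HOXB cluster on chromosome 17, where 5 of 9 genes in the table were called lower and 1 higher. For this and the other HOX clusters, the shares of all genes to set beside the counts are 7.7% lower and 7.43% higher. The 5 lower genes were HOXB4, HOXB5, HOXB6, HOXB8 and HOXB9, with falls of 1.17, 2.04, 2.50, 2.23 and 3.97. HOXB9 was at 5.45, 5.38 and 5.89 in Ovcar4Parental and 1.54, 1.60 and 1.67 in Ov4Carbo4 (SE 0.50, adjusted p = 6.18e-05). The source population Ov4Carbo held HOXB9 at 5.33, 5.49 and 5.53, while Ov4Carbo7 was at -0.21, 2.25 and -0.21. In Ov4Cis, the cisplatin-resistant line, HOXB9 averaged 2.87. The HOXB9 difference of Ov4Carbo4 was called against Ov4Carbo and not against Ov4Carbo7 or Ov4Cis. HOXB13, at the far end of the cluster, rose by 1.02, and its call was lost without Ov4Carbo4 replicate 1 (0.98) or 2 (0.998) or Ovcar4Parental replicate 3 (0.96) and with the title series term (0.95). In the HOXA cluster 1 of 11 genes was higher and 1 lower, and in the HOXC cluster 2 of 5 were higher. Both HOXD genes in the table, HOXD1 and HOXD8, were called higher, HOXD1 by 5.73, but both stayed below log2 RPKM 0. Their means in Ov4Carbo4 were -0.74 for HOXD1 and -5.25 for HOXD8, and HOXD1 was not called on the log2(RPKM + 1) scale (0.67). None was lower in the HOXC and HOXD clusters.

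**Figure D4:**
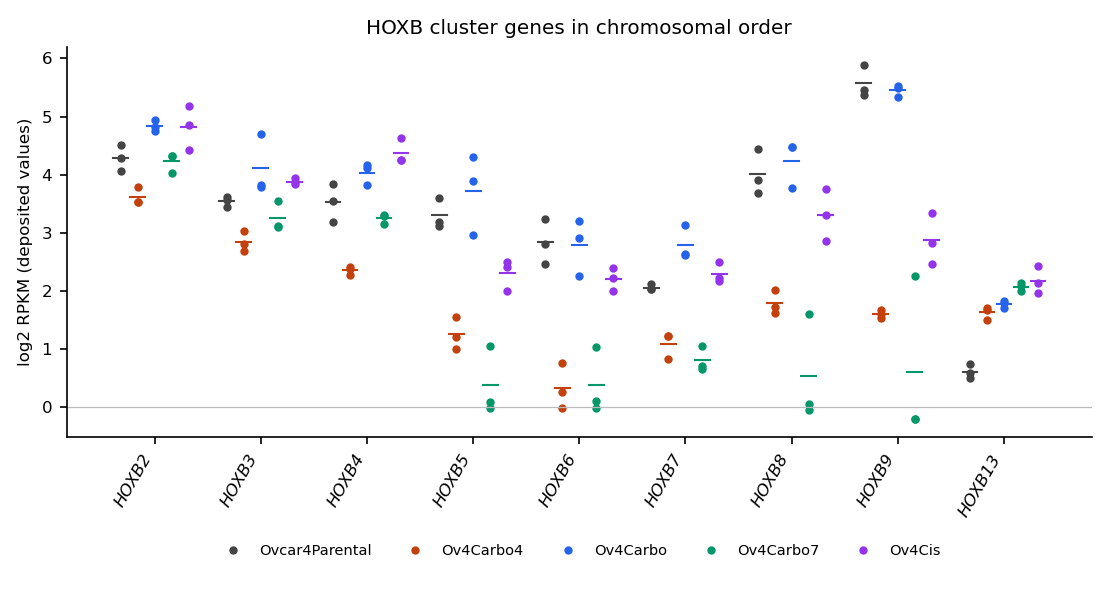
Log2 RPKM of the 9 HOXB genes in the table in their order along the chromosome, with a point per sample, bars at line means and colours for the 5 lines. From HOXB5 to HOXB9 Ov4Carbo4 (orange) and Ov4Carbo7 (green) lie below Ovcar4Parental (grey) and Ov4Carbo (blue), and HOXB13 is lowest in Ovcar4Parental.

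Metallothioneins were partly lower. These small cysteine-rich proteins bind zinc, copper and platinum. Of 11 listed, 5 were in the table, and 3 of these were called lower (60%, against 7.7% of all genes) and none higher. MT1E was at log2 RPKM 5.16, 4.68 and 4.53 in Ovcar4Parental and -4.58, -5.42 and -5.14 in Ov4Carbo4, a fall of 9.83 (SE 0.33, adjusted p = 2.15e-09). MT2A, the member with the highest RPKM, went from 6.68, 6.37 and 5.79 to 4.11, 3.25 and 3.98, a fall of 2.50 (SE 0.35, adjusted p = 0.000123). Both were separated between the lines. MT1E averaged 0.43 in Ov4Carbo, -2.98 in Ov4Carbo7 and 4.99 in Ov4Cis. MT1X was not called, at -0.01 and with a sign that turned between scales. Metallothionein genes are near-identical, and how the authors counted reads shared between them is not given in the sources used here.

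Among 25 carriers of platinum and copper, 5 were called higher (20%, against 7.43% of all genes) and 1 lower (4%, against 7.7%), and all 5 risers (SLC31A2, SLC47A1, SLC47A2, ABCC2 and ABCG2) had a mean below log2 RPKM 1 over all samples. The call of ABCG2 was lost without Ov4Carbo4 replicate 1 (1.62) or 2 (1.67) or Ovcar4Parental replicate 1 (0.96), and that of SLC47A2 without Ov4Carbo4 replicate 2 (1.19) or Ovcar4Parental replicate 2 (1.43) or 3 (1.59). The count of risers was 3 without Ov4Carbo4 replicate 2, and 3 with the title series term, which took the calls of ABCC2, ABCG2 and SLC47A1. The copper and platinum importer SLC31A1 (CTR1) was at 3.77, 3.62 and 3.62 in Ovcar4Parental and 4.48, 4.51 and 4.38 in Ov4Carbo4. The copper-exporting ATPase ATP7A was at 1.51, 1.57 and 1.75 against 2.59, 2.65 and 2.48. Both were higher without overlap but short of the fold limit, at 0.79 and 0.97. LRRC8D, the anion channel subunit through which platinum drugs enter cells, fell from 4.32, 4.02 and 4.003 to 2.63, 2.84 and 2.66, by 1.40 (SE 0.29, adjusted p = 0.00225), a call not kept with the title series term (-0.12). The drug efflux pump ABCB1 was near absent in both lines, at -6.45, -6.88 and -7.00 and at -6.00, -6.45 and -6.11, while Ov4Carbo7 averaged 2.68. In Ov4Carbo ABCB1 was at -0.41 in replicate 1 and -6.37 and -7.30 in the others, and the title series term, which rests on that contrast, moves the Ov4Carbo4 value to -5.84.

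Glutathione and NRF2 target genes had 0 of 41 called higher and 5 lower (12.2%, against 7.7% of all genes). MGST1, a membrane-bound glutathione transferase, was at 4.25, 4.36 and 4.53 in Ovcar4Parental and 1.16, 0.82 and 0.98 in Ov4Carbo4, a fall of 3.40 (SE 0.16, adjusted p = 3.38e-08). SLC7A11, the cystine importer that feeds glutathione synthesis, went from 4.44, 4.23 and 3.35 to 2.09, 2.55 and 1.68, a fall of 1.90 (SE 0.27, adjusted p = 0.000152). Both were separated from Ovcar4Parental, and both were called lower than in Ov4Carbo, Ov4Carbo7 and Ov4Cis. GPX1, a peroxidase that uses glutathione, fell by 1.12 (SE 0.12, adjusted p = 1.33e-05). Of the synthesis enzymes and standard NRF2 targets, GCLC, GCLM, NQO1 and GSTP1 were not called, at 0.26, -0.59, 0.93 and -0.66. With the title series term 2 members were higher and 7 lower, and GCLM was called at -1.05. Of the 41 genes, 16 were called lower in Ov4Carbo4 than in Ov4Carbo7, where 11.1% of all genes were.

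Genes of DNA repair mostly did not pass the call. Of 45 crosslink repair genes 2 were higher (4.44%, against 7.43% of all genes) and 1 lower (2.22%, against 7.7%). Of 27 excision and mismatch repair genes none was called by limma, and their median was 0.05. At an unadjusted limma p under 0.05, 8 of the 27 were higher and 1 lower, against 4371 higher and 3539 lower of all 16604 genes. XPC and ERCC2 were at -0.27 and -0.12. XPA was higher at 0.90, short of the fold limit, and was the 1 member called higher with the title series term (1.39). FANCC, a subunit of the Fanconi core complex, rose from 2.63, 2.61 and 2.69 to 3.88, 3.76 and 3.87, by 1.20 (SE 0.11, adjusted p = 6e-06). BRCA1, needed for homologous recombination, rose from 2.31, 2.20 and 2.45 to 3.45, 3.39 and 3.42, by 1.10 (SE 0.14, adjusted p = 5.31e-05), and was not called against Ov4Carbo, Ov4Carbo7 or Ov4Cis. REV3L, the catalytic subunit of translesion polymerase zeta, fell by 1.29 (SE 0.13, adjusted p = 1.12e-05). These 3 genes did not overlap between the lines.

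Among 42 p53 targets and apoptosis genes 4 were lower (9.52%, against 7.7% of all genes) and 1 higher (2.38%, against 7.43%). The death receptor FAS fell from 2.15, 2.52 and 2.14 to 0.28, -0.08 and -0.36, by 2.33 (SE 0.28, adjusted p = 3.56e-05), and was called below all 3 other resistant lines. PHLDA3, a p53-induced brake on AKT, fell by 2.57 and PLK2 by 1.83, whereas the pro-apoptotic BMF rose by 1.84. The survival genes BCL2L1 and MCL1 were not called, at -0.10 and 0.32. The BMF call was lost without Ovcar4Parental replicate 3 (1.56). CDKN1A (p21) varied widely between replicates, at 1.86, 3.90 and 2.05 in Ovcar4Parental and 2.83, 5.15 and 2.26 in Ov4Carbo4. Of 45 cell cycle genes 2 were called lower (4.44%, against 7.7% of all genes) and none higher (against 7.43%). CDK6, a G1 kinase, fell by 2.17 (SE 0.24, adjusted p = 2.22e-05) and its inhibitor CDKN2B by 1.54 (SE 0.21, adjusted p = 0.000118). With the title series term 1 cell cycle gene was called higher. MKI67 and CCNB1 were not called, at 0.43 and -0.11. In the lineage list CCNE1 (cyclin E), often amplified in serous cancer, fell by 1.10 (SE 0.24, adjusted p = 0.00276), the folate receptor FOLR1 by 2.94 and mesothelin (MSLN) by 1.47, the last not called with the title series term (-1.09).

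Receptor tyrosine kinases and their ligands had 7 of 48 members higher (14.6%) and 11 lower (22.9%), against 7.43% and 7.7% of all genes. ERBB2 (HER2) rose from 3.99, 4.01 and 4.31 to 5.83, 5.50 and 5.76, by 1.59 (SE 0.19, adjusted p = 3.08e-05), and EGFR fell by 1.30 (SE 0.27, adjusted p = 0.00198) from 5.36, 5.49 and 5.81 to 4.29, 4.26 and 4.22. Neither overlapped, and neither call was kept with the title series term (0.82 and -1.23). The insulin receptor INSR fell by 2.36 (SE 0.17, adjusted p = 5.57e-07). MACC1, a regulator of MET transcription, was lost in Ov4Carbo4 at -5.67, -4.74 and -6.37 from 2.10, 2.37 and 1.99, and was also low in Ov4Carbo (-5.92), Ov4Carbo7 (-5.62) and Ov4Cis (-6.48). MET itself was not called, at 0.14.

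Interferon and antigen presentation genes were balanced, with 6 of 53 higher and 6 lower and a median of -0.02. Each count was 11.3% of the list, against 7.43% and 7.7% of all genes. IFIT1, an antiviral RNA-binding protein, was at 1.27, 1.29 and 1.36 in Ovcar4Parental and 3.04, 3.02 and 3.03 in Ov4Carbo4, a rise of 1.72 (SE 0.49, adjusted p = 0.0149) that turned to -0.47 with the title series term. SAMHD1, a dNTP hydrolase, rose by 1.64 (SE 0.22, adjusted p = 8.49e-05). ISG15 and B2M were not called. Leaving out any 1 sample of the 2 lines gave 4 or 5 members higher and 2 to 4 lower, with 2 lower without Ov4Carbo4 replicate 3. This result depends on the title series: in Ov4Carbo IFIT1 was at 5.28 in replicate 1 and 3.53 and 2.64 in the others, and with the term for the series 30 members were called lower and 1 higher. Against Ov4Carbo7, 22 members were called lower and 1 higher (11.1% and 9.86% of all genes were).

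Of 32 hypoxia and glycolysis genes 3 were higher (9.38%) and 4 lower (12.5%), 21.9% in all, against 15.1% of all genes. EGLN3, an oxygen-sensing prolyl hydroxylase, fell from 4.40, 4.72 and 4.58 to 2.41, 2.19 and 2.08, by 2.34 (SE 0.29, adjusted p = 4.5e-05), and the hypoxia-induced NDRG1 by 2.33 (SE 0.60, adjusted p = 0.00855). LDHA, VEGFA and SLC2A1 were not called. With the title series term none was higher and 7 lower. Of 31 cholesterol and fatty acid synthesis genes none was higher and 5 lower (16.1%, against 7.7% of all genes). DHCR7, the last enzyme of cholesterol synthesis, fell by 1.22 (SE 0.15, adjusted p = 4.48e-05), while FASN and SCD were not called.

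The differences were not spread evenly along the genome. Genes with a mean of at least log2 RPKM 1 were divided into 10 groups of neighbours on each chromosome, and 6 stretches of such groups, chosen after their values were seen, held 1444 of the 12037 genes. They held 115 of the 403 genes called higher and 143 of the 565 called lower. On chromosome 9, the 294 genes from IPPK to EHMT1 had a median of 0.72 log2 units, with quartiles of 0.40 and 0.90, and 267 of them (90.8%) were above 0. Their medians were 0.71, 0.67 and 0.73 in the 3 Ov4Carbo4 samples relative to the parental mean, against 0.04 to 0.15 in the 9 samples of the other resistant lines. The other 197 genes of the chromosome had a median of 0.03. NOTCH1, ENG, FANCC, XPA and SLC31A1 lie in this stretch, as does PTGS1, which fell.

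Other stretches were lower. The 361 genes from TRNT1 to TOMM70 on chromosome 3 had a median of -0.48, and 86.1% of them were below 0. That median was -0.48 in each of the 3 Ov4Carbo4 samples and -0.02 to 0.03 in the other resistant lines. TGFBR2 and GPX1 lie here, as does ROBO1, which rose by 4.91, and so do FANCD2 and XPC, which were not called. On chromosome 6, the 252 genes from PHIP to PDCD2 had a median of -0.61 with 84.9% below 0, and REV3L, CCN2 and FNDC1 lie there. Its medians were -0.62, -0.60 and -0.60 in Ov4Carbo4 and -0.06 to 0.04 in the other resistant lines. On chromosome 11, the 67 genes from RELA to MRPL21, GSTP1 among them, had a median of -0.59, against -0.03 to 0.07 in the other resistant lines. Copy number was not measured here.

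The remaining stretches were shared with other lines. The 409 genes from CDK12 to METRNL on chromosome 17, ERBB2 and BRCA1 included, held 62 genes called higher and 10 called lower, HOXB9 among the latter. FASN lies there too and was not called (-0.032). The 409 genes had medians of 0.54, 0.58 and 0.56 in Ov4Carbo4, and 0.50 to 0.59 in Ov4Carbo, Ov4Carbo7 and Ov4Cis. ERBB2 itself was not shared to that extent. It averaged 4.10 in Ovcar4Parental, 4.48 in Ov4Carbo, 4.75 in Ov4Carbo7 and 3.85 in Ov4Cis, against 5.70 in Ov4Carbo4. Ov4Carbo4 was called above Ov4Carbo and Ov4Cis for ERBB2, and not above Ov4Carbo7. On chromosome 7, the 61 genes from NSUN5P2 to SAMD9L, CDK6 included, had medians of -0.74, -0.72 and -0.78 in Ov4Carbo4. Ov4Carbo7 was at -0.87 to -0.92 there, Ov4Carbo at -0.34 to -0.63 and Ov4Cis at -0.08 to -0.01.

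**Figure D5:**
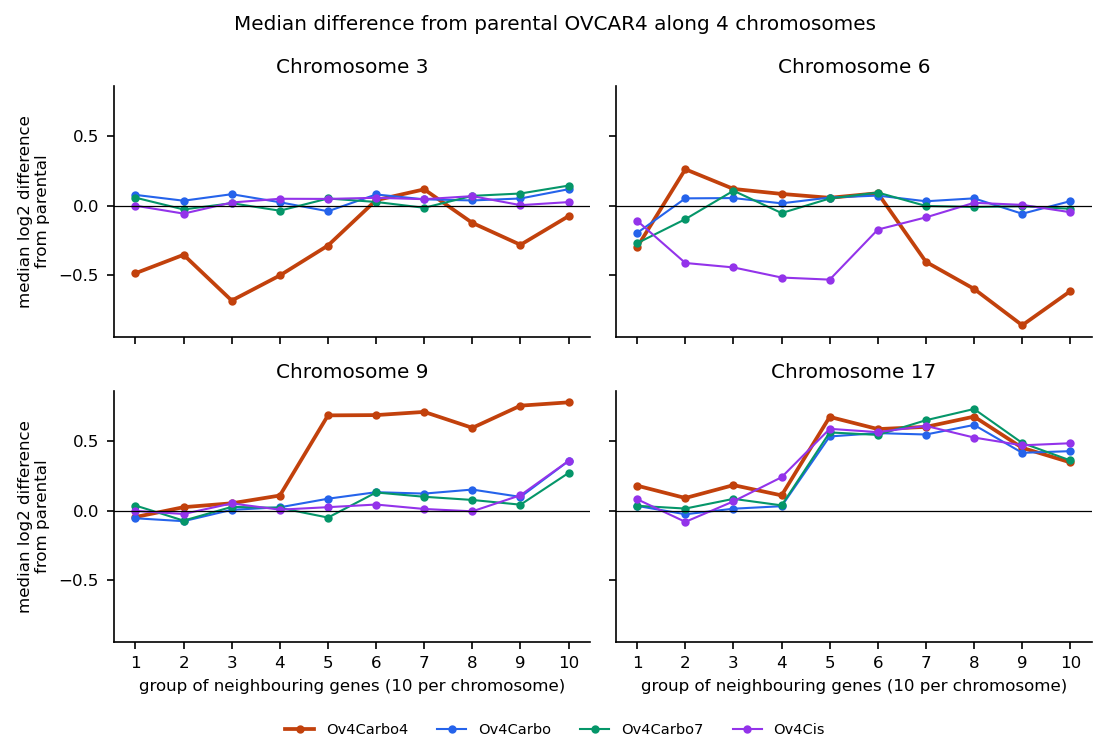
Median log2 difference from Ovcar4Parental in each of 10 groups of neighbouring genes, in chromosomal order, on chromosomes 3, 6, 9 and 17, for Ov4Carbo4 (orange) and the other resistant lines. Ov4Carbo4 lies above the other lines in groups 5 to 10 of chromosome 9 and below them in groups 7 to 10 of chromosome 6 and 1 to 5 of chromosome 3, and all 4 lines lie above 0 from group 5 of chromosome 17.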

How the data were processed

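RNA from 15 cultures of 5 OVCAR4-derived lines was sequenced after polyA capture, per the labels' protocols. The deposited table holds log2 RPKM values for 16604 genes after conditional quantile normalization by the authors, per the name of the table, a step that corrects for GC content and length and makes the distributions of the samples alike, so differences in total RNA are not measurable. Its threshold rule is not stated. BWA 0.7.15-r1140, HTSeq and the build hg19 (GRCh37) are named in the submitters' processing notes, without their roles. Depth is unknown.

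All 15 samples entered 1 limma fit (version 3.58.1, R 4.3.3, lmFit and eBayes, two-sided) with the line as the factor, with Benjamini-Hochberg adjustment across 16604 genes. Calls needed an adjusted p under 0.05 together with a log2 change of 1 or more in either direction. On simulated data of this comparison, with 16604 genes, 190 of 200 genes changed by 2 log2 units were recovered with 3 false calls. Symbols matched 16448 genes. GENCODE 29 served for chromosome and gene order only. Promoters are from RefSeq GRCh38.p14. Other tools were Python 3.11.15, pandas 2.3.3, numpy 2.4.6 and matplotlib 3.10.9.

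Named genes were the 12 largest rises and the 12 largest falls by log2(RPKM + 1) among called genes with non-overlapping values and a higher mean of at least log2 RPKM 1, the 3 called members of each of 20 lists with the largest such difference, and fixed key members. Further list members were named after their values were seen, and some members are not reported here. The comparison and the lists were chosen with earlier results of these data known, so lists are described by counts, not tested. The alternatives were log2(RPKM + 1), log2(RPKM + 0.1), a filter on the mean, 2 lines only, a replicate block, a title series term, a variance trend, other normalizations, stricter thresholds and leaving out single samples.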

Additional observations from a re-analysis of the deposited data

Results flagged for a closer look

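For 15 of the genes named here, the means of the 2 single-cell lines lay at least 1 log2 unit from Ovcar4Parental in opposite directions, and the limma test of the difference between them, adjusted over all genes, passed. The 15 genes were picked by the size and direction of these same differences. A low adjusted p was therefore favoured by the choice, and the values below describe the differences and add no support. How many of all genes meet the rule is not given here. Ov4Carbo4 and Ov4Carbo7 share the title series and the source population. NDRG1 was 2.33 log2 units below Ovcar4Parental in Ov4Carbo4 (a value of -2.33) and 3.69 above it in Ov4Carbo7, a difference of -6.02 (adjusted p = 6.12e-06). MGST1 differed by -5.39 (adjusted p = 1.17e-09), with -3.40 in Ov4Carbo4 and 2.00 in Ov4Carbo7, and C3 by -4.90 (adjusted p = 2.06e-06), with -3.63 and 1.27. IFI27 differed by -4.32 (adjusted p = 6.05e-05), with -1.89 and 2.44, although its call against the parental line was not kept without Ov4Carbo4 replicate 3 (-1.81) or Ovcar4Parental replicate 3 (-1.68). SLC7A11 differed by -4.27 (adjusted p = 2.05e-07), with -1.90 and 2.37, and EGLN3 by -3.61 (adjusted p = 9.5e-07), with -2.34 and 1.27. TNFRSF19 went the other way, with 4.002 in Ov4Carbo4 and -1.80 in Ov4Carbo7, a difference of 5.80 (adjusted p = 1.55e-06). Matrix and inflammation genes were among the others. COL11A1 differed by -10.30 (adjusted p = 5.69e-09), with -7.34 and 2.96, CXCL5 by -7.70 (adjusted p = 9.06e-07), with -5.07 and 2.63, and CP by -6.40 (adjusted p = 6.06e-09), with -3.74 and 2.67. ICAM1 differed by -2.33 (adjusted p = 0.000183), with -1.22 and 1.11. Higher in Ov4Carbo4 and lower in Ov4Carbo7 were COL5A1, with a difference of 5.81 (adjusted p = 1.52e-07), DLX5 with 4.95 (adjusted p = 9.66e-08), BMF with 3.47 (adjusted p = 0.00013) and ID3 with 2.84 (adjusted p = 4.54e-05). Lines of 3 samples are too small for a test of single outlying samples.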

How the results depend on the processing

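The number of called genes was 2298 to 2487 (1104 to 1229 higher, 1184 to 1258 lower) when single samples of the 2 lines were left out, and 2585 without Ov4Carbo replicate 1. Over the same fits, 6 to 8 Hedgehog members were higher, 22 to 25 epithelial members lower and 17 to 21 inflammation members lower. On the log2(RPKM + 1) scale 1053 were called (408 higher, 645 lower, 3 Hedgehog). After the filter on the mean 971 were called (403 higher, 568 lower), with 4 Hedgehog and 13 inflammation members. Under limma's treat test against a change of 1, 929 were called (409 higher, 520 lower), with 15 epithelial, 13 inflammation and 2 Hedgehog members.

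The replicate block gave 2468 calls, 2457 of them shared with the fit without it. Deviations of same-numbered samples of the 2 lines had correlations of -0.17, -0.18 and 0.10. Those of differently numbered samples ran from -0.191 to 0.295. So few values cannot settle whether the numbers pair samples. GBP1 was the only named gene whose call changed under the block (adjusted p = 0.06).

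The title series term gave 2972 calls, with 4 Hedgehog members. It shared 1708 of the 2513 calls, and 36 of these 2513 had the opposite sign. It turned the sign of ABCB1 (-5.84), ERCC2 (0.42), MDM2 (0.18), VIM (-0.45), ZEB1 (-0.11), ISG15 (-0.83), IFIT1 (-0.47), PTCH1 (-0.09), PTGS2 (-0.34), MET (-0.56), MUC16 (0.52), VEGFA (0.31), FASN (0.28) and SCD (0.10). The cause was not tested. On the log2(RPKM + 1) scale MT1X turned to 0.002. Leaving out single samples also turned the sign of some uncalled values, with ranges of -0.164 to 0.246 for MT1X, -0.156 to 0.056 for FASN, -0.056 to 1.46 for CDKN1A, -0.012 to 0.28 for MET, -0.60 to 0.16 for MUC16 and -0.24 to 0.037 for SLC2A1. GBP1, HES1 and IFI27 were among the calls lost without a sample.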
